A study of Homo sapiens with 8 samples.

Results

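The regions described here are 422 sites on human RNA that carried an N6-methyladenosine (m6A) peak after METTL14 knockdown in both osteosarcoma cell lines of the study and no peak in either control. The study used MeRIP-seq: an m6A antibody pulls down RNA fragments, and the pulled-down reads are set against those of input RNA that saw no antibody. U2OS and 143B are established human osteosarcoma lines, and 143B is a RAS-transformed derivative of another osteosarcoma line. Each line received by lentivirus either a control hairpin (shNC, called NC here) or a hairpin against METTL14 (shMETTL14). The 4 groups hold 1 immunoprecipitated and 1 input library each, so 8 libraries in all, and each immunoprecipitated library has 1 list of peaks. How many hairpins were used and whether the cells were pools or clones is not stated in the sources used here.

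Peaks of the 4 lists that overlapped by at least 1 bp of spliced sequence on the same strand were joined, which gave 18714 sites. Sites were chosen by the presence of peaks in these lists alone: a site was kept when it held peaks of U2OS shMETTL14 and of 143B shMETTL14 and none of U2OS NC or 143B NC. Such a site is called gained, a word about the lists and not about a measured rise in methylation. The 422 sites are 2.25% of all sites and 5.72% of the 7374 sites with a peak in both shMETTL14 lists. They lie on 404 genes and hold 1887 listed peaks, 923 in U2OS and 964 in 143B, because a locus is listed again for each isoform. For comparison, 359 sites had peaks in both NC lists and in neither shMETTL14 list (lost in both lines, 5.07% of the sites with a peak in both NC lists), and 5636 sites had a peak in all 4 lists. Of the combinations that cross the lines, 454 sites had peaks in U2OS NC and 143B shMETTL14 only, and 196 in U2OS shMETTL14 and 143B NC only. Since the lists chose the sites, these counts and the strengths given below are a description without a test. Each group has a single list, so the spread between replicates is unknown.

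METTL14 and METTL3 form the core of the complex that writes m6A: METTL3 is the catalytic subunit and METTL14 holds the RNA. The mark is known to be dense in long internal exons, around stop codons and in 3' untranslated regions (3' UTRs). It is read by proteins of the YTH family, among them YTHDF2, which promotes decay of marked RNA, and depletion of the writer is known to lower m6A at most positions. The peak lists do not measure RNA, so the knockdown could not be checked: METTL14 itself carried 3 sites in U2OS NC, 2 in U2OS shMETTL14, 1 in 143B NC and 2 in 143B shMETTL14. None of these METTL14 sites was gained in both lines.

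**Figure D1:**
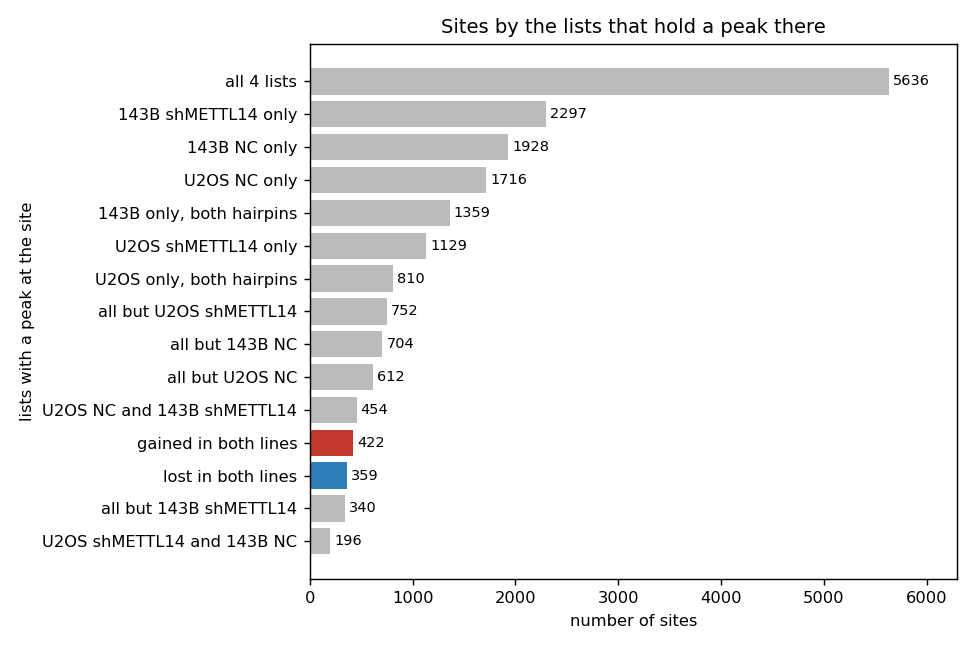
Number of sites (horizontal axis) for each combination of lists that hold a peak there (vertical axis); the sites gained in both lines are red and those lost in both lines blue. The 422 gained sites stand beside 359 lost sites, and 5636 sites had peaks in all 4 lists.

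The lists behind the rule differ in length and peak width. The U2OS shMETTL14 list held 29992 peaks against 32353 with NC, and the 143B shMETTL14 list 35195 against 33082. The median peak width was 236 nt in 143B shMETTL14 and 209 to 210 nt in the other lists. Among marker genes of other cell types, blood and immune genes had a peak on 1 of 7 genes in every list, epithelial genes on 1 or 2 of 7, neural genes on 0 to 2 of 5, and muscle, fat and endothelial genes on 0 of 5. Osteoblast lineage genes had a peak on 4 or 5 of 12, with RUNX2, COL1A1, SPARC and ATF4 among those listed at least once. None of these markers carried a gained site. The part of peak width and cell composition in the results was not tested. List length was varied only by cutting the lists to equal numbers of peaks, which gave 363 gained sites. The share of U2OS shMETTL14 sites free of NC peaks that recur in 143B was then 20.8%, against 27.2% with the full lists. In such data more methylation, more RNA of a gene and deeper sequencing cannot be told apart, as read counts are unknown.

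Gains were common within each line, and those of the lines met at a minority of places. In U2OS, 2359 of 9849 shMETTL14 sites had no U2OS NC peak (24.0%), and in 143B, 3877 of 12236 had no 143B NC peak (31.7%). The lists differed in the other direction too: 1716 sites had a peak in U2OS NC only, against 1129 in U2OS shMETTL14 only. In 143B, 1928 sites were in the NC list only, against 2297 in the shMETTL14 list only. Of the 1551 U2OS shMETTL14 sites free of any NC peak, 422 also carried a 143B shMETTL14 peak (27.2%, exact Clopper-Pearson interval 25 to 29.5). Of the 2719 such sites in 143B, the same 422 were 15.5% (14.2 to 16.9). Among all U2OS shMETTL14 sites, 74.9% (74.0 to 75.7) carried a 143B shMETTL14 peak. In the opposite direction, 359 of 2075 U2OS NC sites free of any shMETTL14 peak carried a 143B NC peak (17.3%, 15.7 to 19.0). Of the 2287 such NC sites in 143B, the same 359 were 15.7% (14.23 to 17.25), close to the 15.5% for gained sites. Among all U2OS NC sites, 65.8% (64.9 to 66.7) carried a 143B NC peak, a lower share than the 74.9% between the shMETTL14 lists. These intervals cover counting error only and treat sites as independent.

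Where they overlapped, the peaks of the lines covered much of the same sequence. Every one of the 422 sites had bases covered in both lines. A median of 84.5% of the U2OS bases and 62.5% of the 143B bases were shared, and 371 sites shared at least 50% of the shorter part. At 20 sites the covered bases were identical. At 60 sites fewer than 50 nt were shared, and at 21 sites a single base, as at THBS2 (thrombospondin 2, a matrix glycoprotein), SLC35A3 and TBC1D1, so these 21 are members by the narrowest margin the rule allows. The 143B part was the longer at 247 sites and the U2OS part at 136.

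Gained sites were narrow, and few were strong by the authors' p-value. Their median covered length was 125 nt in U2OS and 173 nt in 143B, against 223 and 241 nt over all sites of those lists and 334 and 420 nt for sites present in all 4 lists. Other sites missing from some lists were narrow too. Lost sites had medians of 150 nt in U2OS NC and 126 nt in 143B NC. Sites of a single shMETTL14 list had 98 nt in U2OS and 121 nt in 143B. The median of the lowest p-value at a gained site was 0.000232 in U2OS and 9.55e-05 in 143B, against 1.35e-09 and 1e-13 for sites in all 4 lists. Ranked by p-value within their own list, where 100 is the strongest, the gained sites had a median percentile of 23.4 in U2OS and 28.2 in 143B. All sites of those lists had medians of 48.3 and 47.6. In 308 of 422 sites the p-value was weaker than the list median in both lines, and in 9 it was at least as strong in both. Sites found in a single list were weaker still, with median percentiles of 15.4 for U2OS shMETTL14 and 18.6 for 143B shMETTL14. Lost sites ranked much like gained sites, at 26.4 in U2OS NC and 23.2 in 143B NC.

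By fold enrichment, the authors' linear ratio for each peak, the same sites spread over the whole range. In U2OS the highest fold of a gained site ran from 1.31 through a median of 4.36 to 25.1, and in 143B from 1.21 through 4.04 to 38.8. A fold of 10 or more was reached by 123 sites in U2OS (29.2%) and 107 in 143B (25.4%), and by 82 in both. Sites of a single shMETTL14 list came close to these shares, at 26.8% and 22%. Among all sites of the lists they were 13.5% and 13.6%, and among sites in all 4 lists 9.07% and 9.81%. For lost sites they were 10.6% in U2OS NC and 17.3% in 143B NC. The high folds are coarse in the lists as a whole: of all list peaks at 10 or more, 88.4% in U2OS shMETTL14 and 84.3% in 143B shMETTL14 lay close to multiples of 1 spacing. Of the 123 gained sites at 10 or more in U2OS, 119 were multiples of 1.09 to within 0.1 of that fitted spacing, and 96 shared their fold and p-value with another gained site. The most frequent pair there, a fold of 14.2 with a p-value of 0.000525, belonged to 19 sites. In 143B, 102 of 107 lay as close to multiples of 1.11, and 10 sites had a fold of 14.4 with a p-value of 0.000479.

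**Figure D2:**
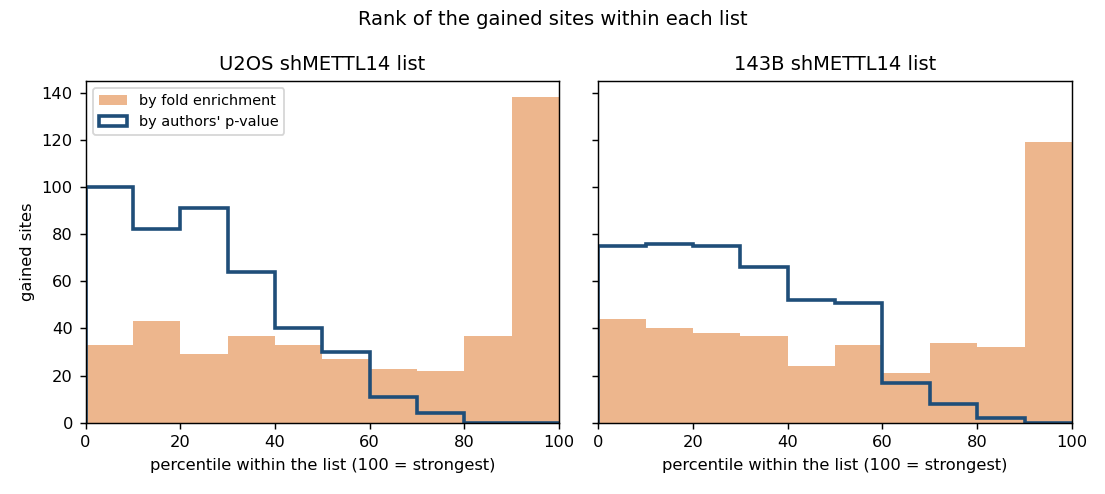
Number of gained sites (vertical axis) by percentile within the U2OS shMETTL14 list (left) and the 143B shMETTL14 list (right), ranked by fold enrichment (filled) and by the authors' p-value (line), in bins of 10 percentiles. By fold, 138 sites in U2OS and 119 in 143B reached the top 10%, and by p-value 0 in either list.

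The fold of a site in one line went with that in the other. Across the 422 sites Spearman's rho was 0.784, given as a description. The part of site length and transcript part in it was not tested, and no rho over other sites is given beside it. It was 0.628 over the 274 sites under 10 in both lines and 0.167 over the 82 at or above 10 in both. The folds differed by less than 2 times at 344 sites. U2OS was the higher at 234 sites and 143B at 187.

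**Figure D3:**
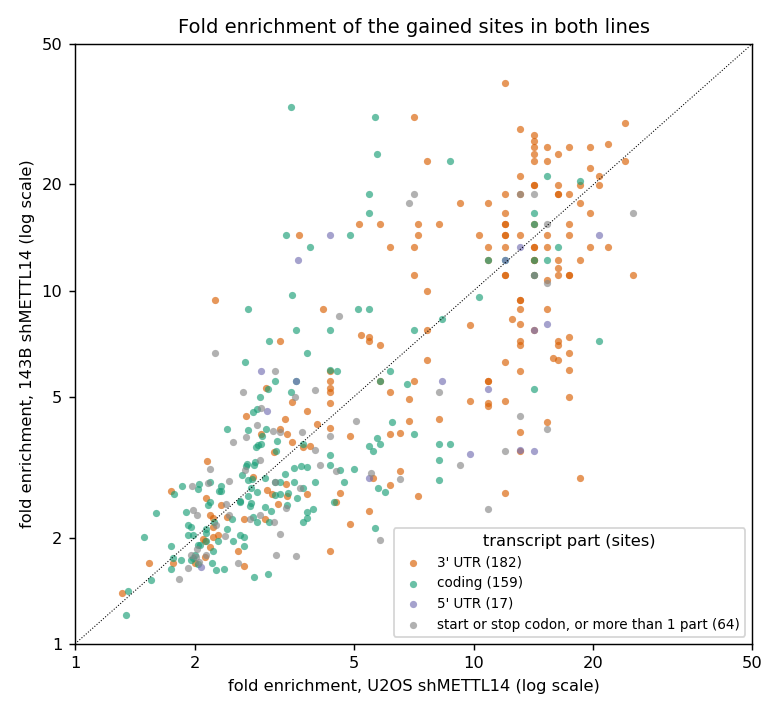
Fold enrichment of each gained site in U2OS shMETTL14 (horizontal) and in 143B shMETTL14 (vertical), both on log scales, coloured by transcript part; 1 point is 1 site and the dotted line marks equal values. Most coding sites lie at low folds in both lines, and 3' UTR sites make up most of the points at 10 or more.

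The transcript part was not used to choose the sites. By all listed peaks of a site, 182 of 422 lay wholly in a 3' UTR (43.1%, 38.4 to 48.0), 159 wholly in coding sequence (37.7%, 33.0 to 42.5), 17 in a 5' UTR, 12 across a stop codon and 2 across a start codon. The remaining 50 had peaks in more than 1 part. Over all 18714 sites the 3' UTR share was 33.3% and the coding share 36.2%. Sites in all 4 lists were wholly 3' UTR in 19.0% and lost sites in 33.7% (28.8 to 38.8). Sites of a single shMETTL14 list lay on either side of the gained sites, at 38.5% in U2OS and 48.5% in 143B. Wide sites more often span several parts, so the parts were also taken from 1 peak per list, that of highest fold. By that count 44.5% of gained sites in U2OS and 44.8% in 143B lay in a 3' UTR, against 31.2% and 34.3% of all sites of those lists. Peaks across the stop codon made up 7.11% and 6.40% of gained sites, against 15.6% and 16.2% of all sites. Lost sites had low shares too by this count, 8.08% in U2OS NC and 8.36% in 143B NC, and sites of a single shMETTL14 list had 5.76% in U2OS and 5.18% in 143B.

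High folds were more frequent among gained sites in the untranslated regions than among those in coding sequence. In the 3' UTR, 94 of 188 sites reached 10 in U2OS (50%, 42.6 to 57.4) and 77 of 189 in 143B (40.7%, 33.7 to 48.1). In coding sequence 14 of 179 (7.82%) and 20 of 180 (11.1%) did. The lists as a whole showed the same order of these parts with lower 3' UTR shares, 24.4% against 6.58% in U2OS and 21.8% against 7.48% in 143B. For sites of a single list the 3' UTR shares were 35.8% in U2OS and 28.0% in 143B. In the 5' UTR, 10 of 22 gained sites reached 10 in U2OS (45.5%, 24.4 to 67.8) and 5 of 20 in 143B (25%, 8.66 to 49.1). Over all sites of the lists the 5' UTR shares were 26.5% and 25.2%, slightly above those of the 3' UTR.

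**Figure D4:**
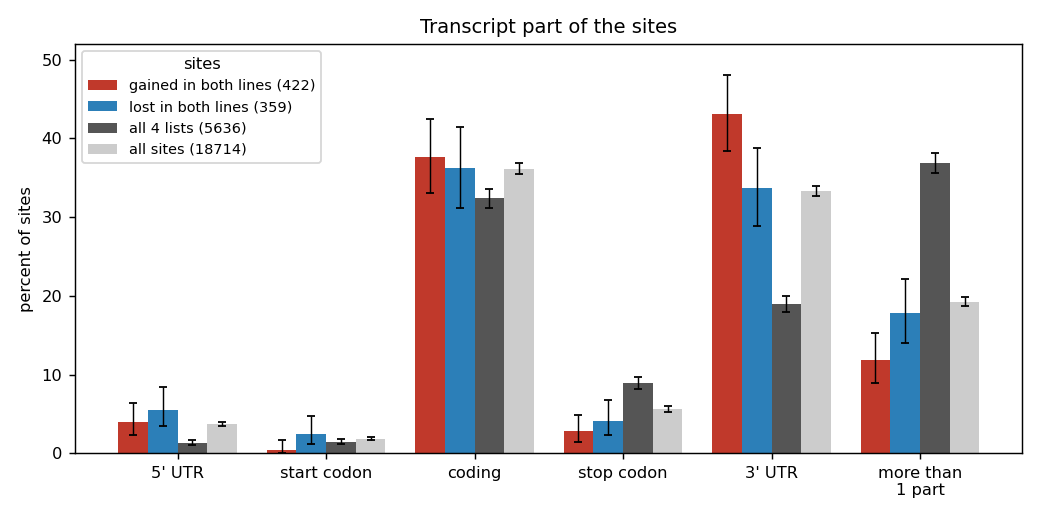
Percent of sites (vertical axis) in each transcript part by all peaks of the site, for gained sites, lost sites, sites in all 4 lists and all sites; error bars are exact 95% binomial intervals, which cover counting error only. Gained sites were wholly 3' UTR in 43.1%, lost sites in 33.7% and sites in all 4 lists in 19.0%.

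Gained sites lay both on genes with other m6A peaks and on genes without any NC peak. Of the 404 genes, 7.82% of the genes with a peak in both shMETTL14 lists, 237 had NC peaks elsewhere in both lines, 81 in 1 line and 86 in neither. The 86 are 21.3% of the genes, against 2.30% (119 of 5168) of all genes with a peak in both shMETTL14 lists, a difference that the rule, which asks for no NC peak at the site, favours. A site present in all 4 lists lay on 184 of the genes. Where a gene had an NC peak, the gained site stood a median of 636 nt from it along the genome. The distance was 100 nt or less for 52 of 334 sites and over 10000 nt for 59. At the edge of the rule, the gained sites of C11orf57, CCDC136 and PPARG, the fat cell regulator, were 2, 5 and 10 nt from an NC peak. Just outside it, 15 sites shared under 30 nt with an NC peak and were left out. Sites of AP3B1, BCAR1 and E2F3, a cell cycle transcription factor, are among several of these that shared 1 nt. The gained site of PPARG had folds of 4.12 in U2OS and 3.20 in 143B, and the left-out site of E2F3 17.4 and 23.3. The 87 gained sites on genes with no NC site had median folds of 3.81 and 3.99, and the 253 on genes with NC sites in both lines 3.95 and 3.96.

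Of the 15 gained sites of highest mean fold rank, 13 lay wholly in a 3' UTR, 1 in coding sequence (ZRSR1) and 1 across a stop codon (ROR2). All coordinates are on hg19 and count from 1. SFXN1, a mitochondrial serine transporter, led the ranking with folds of 24.0 in U2OS and 29.9 in 143B (chromosome 5, 174955911 to 174956536). Its peaks had p-values of 5.01e-07 and 4.27e-10, and neither NC list has a peak there. A second SFXN1 site 5' of it was in all 4 lists, with folds of 15.4 with NC and 15.3 with shMETTL14 in U2OS and 3.63 and 51.0 in 143B. SOWAHC followed with 24.0 and 23.3 (chromosome 2, 110375251 to 110375728), on a gene that also has a stop codon site in all 4 lists. CYP51A1, the lanosterol demethylase of cholesterol synthesis, had 21.8 and 26.0 (chromosome 7, 91741765 to 91742185), and no NC peak anywhere on the gene. CYP51A1 is 1 of the 86 genes whose gained site came with no NC peak in either line.

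PHAX, an adaptor for the export of small nuclear RNA from the nucleus, had a pair of gained sites close together in its 3' UTR. The first (chromosome 5, 125962075 to 125962344) had folds of 15.3 in U2OS and 25.5 in 143B, and the second (125962434 to 125962764) 19.6 and 25.5. A site over the stop codon of PHAX was in all 4 lists, with folds from 7.35 to 8.40. REL, a subunit of NF-kappa-B, also had 2 gained sites, at the ends of a stretch of 3' UTR peaks. The first (chromosome 2, 61149819 to 61150125) had folds of 19.6 and 22.2, and the second (61156919 to 61157189) 25.1 in U2OS and 11.1 in 143B, where it was 61 nt wide with a p-value of 0.00200. Between them a REL site was in all 4 lists, with folds of 12.8 and 5.81 in U2OS and 19.6 and 17.7 in 143B. REL carried 3 sites with NC and 6 with shMETTL14 in U2OS, and 1 and 6 in 143B.

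XPNPEP3, a mitochondrial aminopeptidase, was the only gene with 3 gained sites, all in the 3' UTR on chromosome 22. Their folds were 12 and 6.28 at 41323464 to 41323554, 7.08 and 31.0 at 41326426 to 41326875, and 15.3 and 14.4 at 41327144 to 41327293, in U2OS and 143B. At the last, the peaks of the lines shared 1 nt. With NC, XPNPEP3 had 1 site in U2OS and 3 in 143B, none of which overlapped a gained site. Another 20 genes had 2 gained sites.

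**Figure D5:**
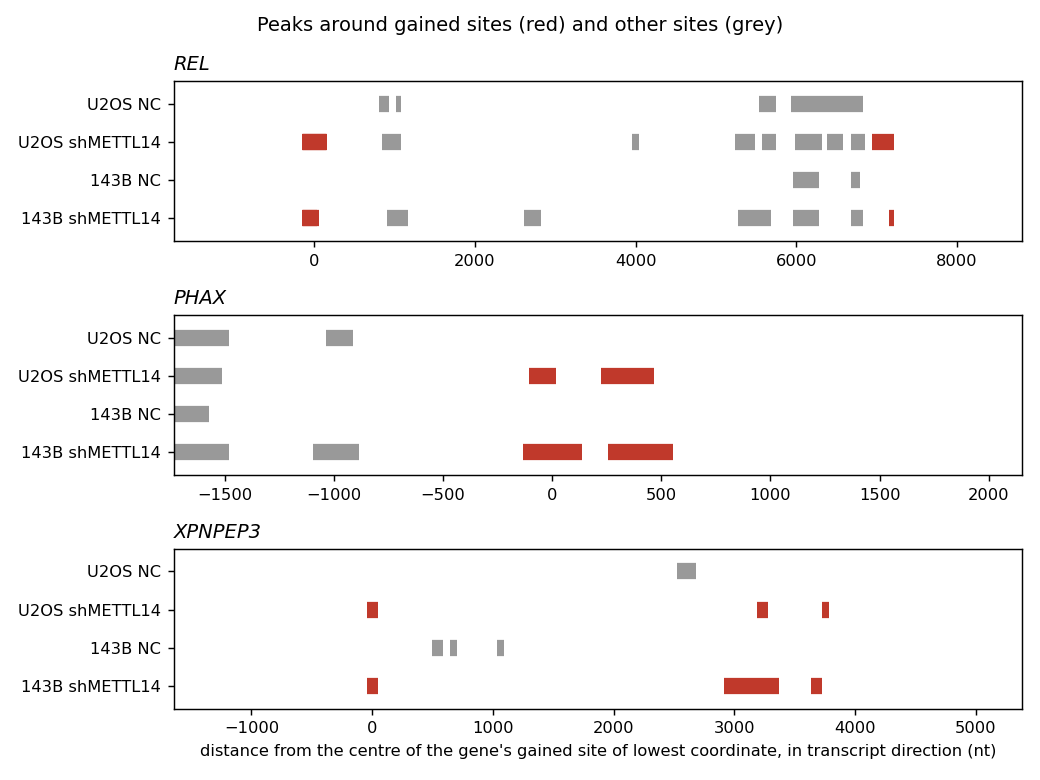
Peaks of the 4 lists (rows) around the gained sites of REL, PHAX and XPNPEP3, by distance in nt from the centre of the gene's gained site of lowest coordinate, in the direction of the transcript; gained sites are red and other sites grey. Red bars appear only in the shMETTL14 rows, as the rule requires, with grey NC peaks of the same gene between or beside them.

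The stop codon peak of ROR2, a receptor tyrosine kinase for WNT5A that shapes the skeleton, had folds of 25.1 in U2OS and 16.6 in 143B (chromosome 9, 94485835 to 94486045). It had p-values of 5.37e-07 and 2.69e-08, and ROR2 had no NC peak in either line. FLVCR1, a membrane transporter linked to heme and choline, likewise had no NC peak and a gained 3' UTR site with folds of 18.5 and 17.7. HECA (20.7 and 19.9), DHTKD1 (17.4 and 25.5), a mitochondrial enzyme of lysine breakdown, and PGAM5 (18.5 and 19.9), a mitochondrial phosphatase, all had gained 3' UTR sites on genes with NC peaks. MRP63, a protein of the mitochondrial ribosome, had 20.7 and 21.1, TTPAL 16.3 and 24.4, and SFR1, which takes part in homologous recombination, 17.4 and 18.8. ZRSR1, a relative of the splicing factor U2AF, had a coding site with 18.5 and 20.5, which is uncertain because a close copy could share its reads.

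The 9 gained sites above the list median by p-value in both lines were mostly of low fold. CRCP, a subunit of RNA polymerase III, had the strongest pair of ranks, with p-values of 1.12e-07 in U2OS and 2.00e-20 in 143B at folds of 2.93 and 3.92 (chromosome 7, 65617374 to 65617624, 3' UTR). ATF5, a stress response transcription factor, had 2.75e-09 and 7.94e-10 at folds of 2.79 and 2.97. FAR1, which makes fatty alcohols for ether lipids, had folds of 2.32 and 2.79 and no NC peak on the gene. VPS4A, an ATPase of the ESCRT machinery, shared its coding site with the overlapping annotation RP11-343C2.11, at folds of 2.22 and 1.83. PTTG1IP had 2.05 and 1.70. SFXN1, ROR2 and the m6A reader YTHDF2 were also among the 9. By the mean of both p-value ranks, KANK2, CYP51A1, CCND1 and MRP63 were also among the 10 highest. At the low end by fold were PAICS (1.36 and 1.41), GANAB (1.31 and 1.39) and CSE1L (1.34 and 1.21).

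Of the writers, erasers and readers of m6A, 1 of 18 genes with peaks in both shMETTL14 lists held a gained site. This was YTHDF2, where a coding site at chromosome 1, 29069204 to 29069403 had folds of 2.70 in U2OS and 3.23 in 143B and p-values of 1.41e-06 and 8.13e-08. A larger YTHDF2 site 3' of it was in all 4 lists, with folds of 5.29 and 5.78 in U2OS and 8.11 and 7.58 in 143B.

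Over 31 gene lists, 73 of the 404 genes were on a list, and the shares below are read against the 7.82% of all genes with peaks in both shMETTL14 lists. DNA repair genes held gained sites on 6 of 40 (15%, 5.71 to 29.8). They were SLX4, a nuclease scaffold (3' UTR, folds 19.6 and 13.3), NEIL1, a base excision glycosylase with no NC peak (5' UTR, 12 and 12.2), the helicase ERCC2 (5.81 and 7.02), BRCA2 (3.58 and 5.54), FANCM and REV3L. By the authors' p-value the NEIL1 site was weak, at percentiles of 2.83 in U2OS and 4.16 in 143B. C2H2 zinc finger genes held them on 26 of 223 (11.7%, 7.76 to 16.6), led by ZSCAN29 (17.4 and 14.4), ZNF394 (13.1 and 18.8), ZNF628 (16.3 and 13.3) and ZSCAN20 (8.72 and 23.3). Zinc finger genes share sequence, so reads may be split between them. Both intervals include the share of all genes. Sites lost in both lines lay on 4 of 36 DNA repair genes with peaks in both NC lists, and on 20 of 213 such zinc finger genes. The lost-site share over all genes with peaks in both NC lists was not counted, so these lost counts stand without a baseline.

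Cell cycle genes held gained sites on 3 of 28. RBL1 and RB1, pocket proteins that restrain E2F, had folds of 10.9 and 5.54 in the 3' UTR and of 3.27 and 2.04 across the stop codon. By the authors' p-value the RBL1 site was weak, at percentiles of 0.247 in U2OS and 3.79 in 143B. CCND1, cyclin D1, had 1.53 and 1.69 in its 3' UTR (chromosome 11, 69467538 to 69467747), with a p-value of 4.07e-05 in U2OS and of 2.00e-20 in 143B. MDM4, a restrainer of p53, had 1 gained site with folds of 2.74 and 2.26 among 5 sites with NC and 7 with shMETTL14 in U2OS and 9 and 8 in 143B, and was 1 of 8 p53 control genes. The Hedgehog transcription factors GLI2 (3.02 and 5.32) and GLI3 (3.49 and 5.17) were 2 of 14 Notch and Hedgehog genes. Hippo genes gave 2 of 21, TEAD3, a partner of YAP (3.83 and 2.66), and AMOTL2, a scaffold that binds YAP, with 2 gained sites.

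Of receptor tyrosine kinase and RAS-MAPK genes 2 of 22 held a gained site, ROR2 and the kinase MAPK3 (1.96 and 2.80). Genes of PI3K, AKT and FOXO gave 2 of 20: FOXO1, which AKT keeps out of the nucleus, had 5.45 and 7.39 in the 3' UTR, and the regulatory subunit PIK3R1 2.93 and 5.91 in the 5' UTR. GSK3A, a kinase that restrains beta-catenin, was 1 of 14 Wnt genes (2.13 and 1.78), REL 1 of 18 NF-kappa-B and innate signalling genes, and NCOA1, a nuclear receptor coactivator, 1 of 9 retinoic acid genes (2.85 and 3.60). Chromatin modifiers gave 3 of 58, with CREBBP, an acetyltransferase (5' UTR, 14.2 and 7.76), BAP1, a histone deubiquitinase (10.9 and 2.41), and KMT2D, a histone methyltransferase (3.21 and 3.76). In the same 5' UTR of CREBBP, 208 nt from the gained site, U2OS NC had a peak with a fold of 14.1. KMT2D had 5 sites with NC and 8 with shMETTL14 in U2OS, and 8 and 12 in 143B.

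Adhesion and matrix genes gave 2 of 25. THBS2, with no NC peak, had 12 and 4.88, and LAMB1, a laminin chain, had 2.21 and 1.69. Names in the ubiquitin ligase and deubiquitinase families gave 5 of 123 (4.07%, 1.33 to 9.23), among them USP54, TRIM32, KLHL23 and KLHL42, the first 2 with a pair of sites each. RAB GTPases and their regulators gave 4 of 47, RAB7L1 (15.3 and 8.86), TBC1D1, RAB15, which had no NC peak, and RAB5B. Centrosome and cilium names gave 3 of 33 (IFT81, TTC28 and CEP135), motor proteins 2 of 38 (KIF24 among them), and splicing factors 2 of 33 (CELF1 and SRSF10). Of these, KIF24 had 5.66 in U2OS and 31.0 in 143B, and the SRSF10 site lies on an unplaced contig. Names in the solute carrier pattern gave 2 of 63 (SLC35A3 and SLC7A6OS), and names in the cytosolic ribosomal protein pattern 1 of 40 (RPL7L1, 2 and 1.69). A match by name does not show that SLC7A6OS is a transporter or RPL7L1 a protein of the ribosome. Autophagy and lysosome genes gave 1 of 13 (CTSB, 12 and 14.4). By the authors' p-value the CTSB site stood at percentiles of 2.83 in U2OS and 19.8 in 143B.

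Lists of translation genes (0 of 35), mitochondrial ribosome and respiratory chain genes by name (0 of 51), RNA decay and microRNA genes (0 of 26) and cadherins (0 of 22) held no gained site. The name pattern for mitochondrial genes does not catch MRP63. The same count of 0 was found for TGF-beta and BMP genes (of 19), apoptosis genes (of 19), immediate early genes (of 16), osteoblast and bone genes (of 12) and housekeeping genes (of 10). A count of 0 of 51 allows a share of up to 6.98% by the upper bound of the exact interval, and 0 of 12 up to 26.5%.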

How the data were processed

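MeRIP-seq peak lists of 4 immunoprecipitated libraries were used, grouped by sample title; the 4 input libraries were not analysed here. The tools named in the submitters' processing notes are HISAT2, Trimmomatic and FastQC 0.11.5, and the build is hg19 (GRCh37). The peak caller, with its threshold and use of strand, is not given in the sources used here. Per the file headers, the authors give each peak a linear fold enrichment, which is a ratio, and a p-value as deposited. That the ratio is immunoprecipitated over input RNA is assumed from its column name. Depth is unknown, as the lists hold no counts.

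Peaks were joined to sites by overlap of spliced blocks on the same strand, over all 4 lists at once. A site takes the highest fold and the lowest p-value of its peaks in a list; percentiles are ranks among all peaks of the list. Intervals of shares are exact (Clopper-Pearson, 95%). The members and gene lists were chosen with earlier results of these data known, so no count supports another, and no test was made across conditions.

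Named were the 15 sites of highest mean percentile by fold and the 10 by p-value, genes with 3 sites, up to 4 members per gene list, the 3 of lowest fold and those at the edge of the rule, on chromosomes 1 to 22 and X; names outside this rule are FANCM, REV3L, SRSF10, and those so marked. Some sites that the rule or a count covers are not reported here by name. On simulated lists made from the 143B NC list, which joined alone gives 12258 sites, the presence patterns of all 12258 were recovered. Sequences are not printed, as a genome of the files' build was not used here. Alternatives are given at the end. Python 3.11.15, numpy 2.4.6, pandas 2.3.3, scipy 1.17.1 and matplotlib 3.10.9 were used.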

Additional observations from a re-analysis of the deposited data

How the results depend on the processing

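The number of gained sites stayed within 1.5 times of 422 when links needed 50% of the shorter peak, with genomic spans, without strand, with NC peaks within 100 bp removing a site, on chromosomes 1 to 22 and X, by direct pairs of peaks, among the stronger peaks of each list by fold, and, added after seeing the data, with equal numbers of peaks per list (361 to 453 sites). Under the 50% rule the count was again 422, of which 376 were among the sites described, against 197 of the 361 by fold. With only shMETTL14 peaks at or below their list's median p-value kept, 9 sites remained. With all 4 lists restricted so, 151 were found, with 9 of the 422 among them. The other 142 held no peak of the 422 sites. In the full lists their sites include an NC peak, so they count as gained only after the weaker peaks were removed. Counted by genes there were 119, with 135 lost. The share of U2OS sites free of NC that recur in 143B was 23% with the 50% rule, 24.4% by fold, 20.8% with equal numbers, 32.1% for genes, 31.7% with all lists restricted by p-value and 11.1% with the shMETTL14 lists restricted. That last setting left 4 genes with no NC peak, 33.3% of sites in the 3' UTR and 44.4% in coding sequence. The 143B peak of lowest p-value put 43.4% in coding sequence. The median percentiles by fold, 65.1 in U2OS and 58.2 in 143B, became 23.4 and 28.2 by p-value. All sites of those lists had medians of 60.2 and 59.2 by fold, so the 143B value lies below its own list's. No paired analysis was possible because the results come from no test: the lists pair by line, and the rule already compares within each line, but no group has a second list. The share of sites with the DRACH motif was planned and not run.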

Other observations

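In 16 genes a site gained in both lines and a site lost in both lines occurred together, which is 3.96% of the 404 genes with a gained site and 4.56% of the 351 genes with a lost one. These shares are near those of all 8758 genes with any peak, of which 4.01% had a lost and 4.61% a gained site. MAPK3 had 1 site in each list: with NC its peaks (chromosome 16, 30133287 to 30134541) had folds of 6.42 in U2OS and 7.30 in 143B, and with shMETTL14 they lay at 30129482 to 30133213, with folds of 1.96 and 2.80. ERCC2 lost a 3' UTR site with folds of 3.38 and 2.61 and gained another in the same 3' UTR with 5.81 and 7.02. In BRCA2 both lay in coding sequence, the lost site at 32912602 to 32912841 on chromosome 13 (7.28 and 3.26) and the gained site at 32929305 to 32930684 (3.58 and 5.54). The lost and gained sites of LRRC57, PELI3 and SNX16, named after their values were seen, were the single site of the gene in each list.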
